A study of Mus musculus with 12 samples.

Results

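Genes of B cells and of antibody secretion were followed across the gut epithelium of individual WT and Chd8L+/- mice. The 9 symbols followed were Cd79a, Cd79b, Ms4a1, Cd22, Pou2af1, Mzb1, Jchain, its older name Igj, and Pigr, and each was looked up as a row of the deposited table. A row was found for 8 of the 9, all but Igj, among 14244 rows in all, and 8 of 8 had a mean of at least 10 normalized counts over the 12 libraries, as did 12808 genes in total. All mice were male C57BL/6 littermates aged 8 weeks: 5 WT mice and 7 Chd8L+/- mice, which lack part of 1 copy of the large isoform of the chromatin remodeler gene Chd8 in the whole body. Epithelium was released from the gut with EDTA and DTT and pelleted without a cell sort, so that other cells of the mucosa could enter the pellet, and the segment of gut is not named in the labels. Poly(A) RNA of each mouse was made into its own library and sequenced as 75-base reads.

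Gut B cells gather in Peyer's patches and isolated lymphoid follicles, where naive and germinal centre B cells carry a surface receptor that signals through the Cd79a and Cd79b chains. B cells that switch to IgA leave the follicles and settle as plasma cells in the stroma under the epithelium, where they lose most surface B cell genes and secrete IgA dimers joined by the J chain. The polymeric immunoglobulin receptor Pigr, made by the epithelial cells themselves, binds the J chain, carries the dimers through the cell and releases them into the gut lumen. In RNA from a pellet of many cells, fewer cells of a type and less RNA per cell cannot be told apart.

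Between 15691662 and 20761315 reads per library could be recovered from the normalized values. The epithelial label was borne out by the markers: Epcam, an adhesion molecule of epithelial cells, lay between 27667 and 52974 normalized counts in WT and between 28112 and 51496 in Chd8L+/- libraries. RNA of B cells was present in every library at far lower levels, with Pax5, the transcription factor that keeps B cell identity, between 1.25 and 113 in WT and between 3.14 and 154 in Chd8L+/- libraries. Chd8, counted over its whole length, was at 953 ± 85.5 in the WT group and 1297 ± 123 in the Chd8L+/- group (mean ± SD, n = 5 and n = 7), and the deleted exons cannot be told apart in these values. WT replicate 2 stood apart over the whole table: 3 of 12808 genes (0.0234%) differed between genotypes at an adjusted p of 0.05 or less by limma with all libraries, and 27.6% did without that library. Without it, 0 of the 8 genes passed as well.

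The 2 chains of the B cell receptor varied more from mouse to mouse than between genotypes. Cd79a (ENSMUSG00000003379, GRCm38 chr7:24897381-24902197, plus strand) had 96.9, 38.6, 244, 488 and 13.8 normalized counts in WT replicates 1 to 5, and a lowest, median and highest value of 7.33, 56.6 and 431 over the 7 Chd8L+/- libraries. Cd79b (ENSMUSG00000040592, chr11:106311341-106314762, minus strand) had 63.1, 47.7, 220, 263 and 21.3 in WT, and 17.3, 38.8 and 306 as its lowest, median and highest Chd8L+/- value. For both genes the libraries of each genotype spanned nearly the whole range of the other. WT replicate 4 and Chd8L+/- replicate 5 were the highest for both chains, and the exact 95% Poisson interval of Cd79a, which covers counting error only, ran from 446 to 533 in the former and from 390 to 474 in the latter. At the other end Chd8L+/- replicate 4 held 7 recovered reads of Cd79a, with an interval of 2.95 to 15.1 normalized counts. Cd79a was lower in Chd8L+/- mice by a log2 fold change of -0.49 (SE 0.99, adjusted p = 0.786, limma), and Cd79b by -0.52 (SE 0.76, adjusted p = 0.698, limma), neither of which passed the test.

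The surface proteins and the coactivator of B cells showed the same spread. Ms4a1 (ENSMUSG00000024673, chr19:11249675-11266241, minus strand) encodes CD20, a membrane protein of mature B cells that plasma cells lose. It had 54.2, 18.3, 142, 147 and 5.02 normalized counts in WT replicates 1 to 5, against a lowest, median and highest Chd8L+/- value of 3.64, 33.7 and 231. Cd22 (ENSMUSG00000030577, chr7:30865402-30880342, minus strand) encodes a sialic acid-binding receptor that dampens B cell receptor signals. It had 48.0, 38.6, 149, 213 and 16.3 in WT and 2.09, 84.4 and 335 as its lowest, median and highest Chd8L+/- value. Pou2af1 (ENSMUSG00000032053, chr9:51213708-51240080, plus strand) encodes the coactivator OCA-B, which binds octamer factors on immunoglobulin promoters and is needed for germinal centres. It had 60.4, 34.5, 190, 205 and 8.78 in WT and 15.5, 32.2 and 249 as its lowest, median and highest Chd8L+/- value. The groups overlapped for each of these 3 genes, and only Cd22 had its median higher in Chd8L+/- libraries. The log2 fold changes from WT to Chd8L+/- were -0.22 (SE 1.02) for Ms4a1, -0.60 (SE 1.13) for Cd22 and -0.28 (SE 0.81) for Pou2af1, with adjusted p between 0.769 and 0.91 by limma. Reads on Ms4a1 and Cd22 may include those of an antisense transcript that overlaps each, and reads on Pou2af1 those of a transcript within its intron, since the use of strand in counting is not given.

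**Figure D1:**
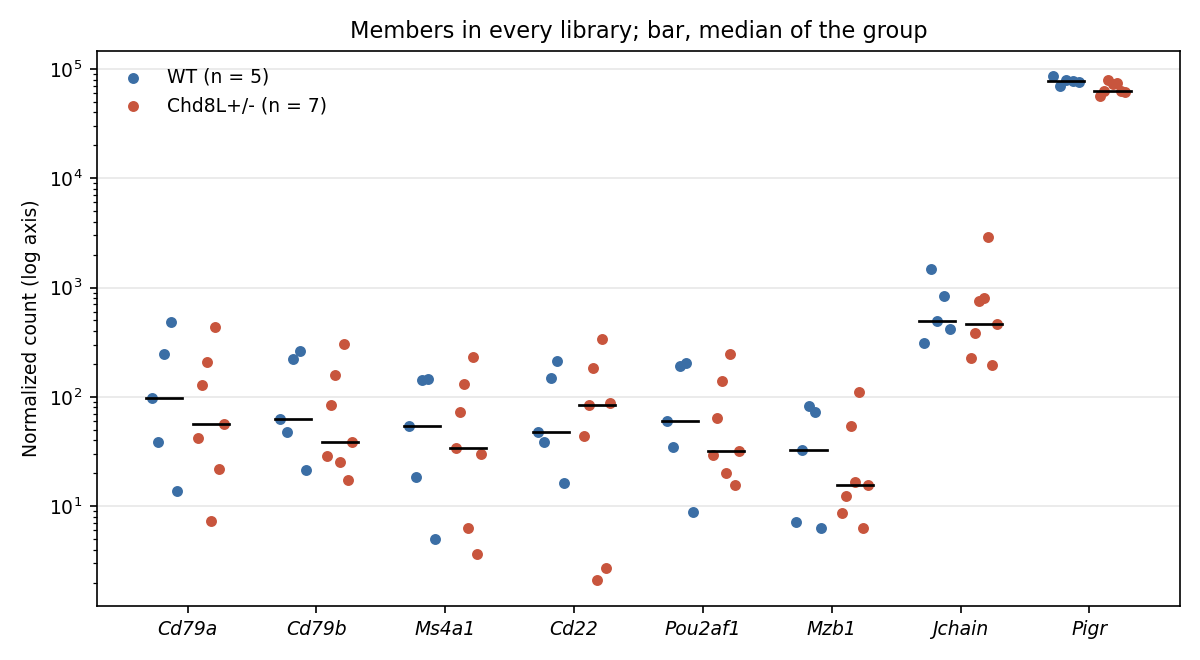
Normalized count (log axis) of each of the 8 genes in every library, with WT (n = 5) in blue and Chd8L+/- (n = 7) in red, and a bar at the median of each group. The 7 lymphoid genes spread from 14.8-fold (Jchain) to 160-fold (Cd22) between the lowest and highest library in overlapping groups, and Pigr lies within 1.52-fold.

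Promoter windows are given for Cd79a, Cd22 and Pou2af1 because these genes were high and low in the same libraries, and for Jchain because it was the lymphoid gene that followed them least. Each window runs from 250 bases before to 50 bases after the RefSeq start of the gene on GRCm38.p6, 5′ to 3′ on the strand of the gene, and capitals mark matches to 5 motifs searched on both strands. Windows were found for 5 of the 8 genes, with Cd79b, Ms4a1 and Mzb1 not among them. The window of Cd22 lies wholly within the gene interval given above, which is from another annotation (GENCODE) with a start farther upstream.
Cd79a, chr7:24897247-24897546, plus strand: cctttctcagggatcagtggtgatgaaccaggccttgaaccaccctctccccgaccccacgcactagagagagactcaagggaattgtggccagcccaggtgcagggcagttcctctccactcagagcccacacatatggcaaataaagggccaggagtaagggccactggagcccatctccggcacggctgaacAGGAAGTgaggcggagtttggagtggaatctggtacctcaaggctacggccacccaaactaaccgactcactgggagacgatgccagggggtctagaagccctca
Cd22, chr7:30878979-30879278, minus strand: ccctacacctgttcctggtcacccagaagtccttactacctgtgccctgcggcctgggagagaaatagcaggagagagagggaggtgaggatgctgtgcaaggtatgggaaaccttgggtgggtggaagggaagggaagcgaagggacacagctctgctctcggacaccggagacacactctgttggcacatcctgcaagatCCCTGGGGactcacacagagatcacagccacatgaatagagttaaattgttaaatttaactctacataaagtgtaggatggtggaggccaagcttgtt
Pou2af1, chr9:51213440-51213739, plus strand: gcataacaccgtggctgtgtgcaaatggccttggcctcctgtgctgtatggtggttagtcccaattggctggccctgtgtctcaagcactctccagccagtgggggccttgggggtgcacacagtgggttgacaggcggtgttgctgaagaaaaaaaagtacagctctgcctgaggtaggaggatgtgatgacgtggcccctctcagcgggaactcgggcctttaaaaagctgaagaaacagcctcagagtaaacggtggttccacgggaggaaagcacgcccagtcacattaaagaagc
Jchain, chr5:88527848-88528147, minus strand: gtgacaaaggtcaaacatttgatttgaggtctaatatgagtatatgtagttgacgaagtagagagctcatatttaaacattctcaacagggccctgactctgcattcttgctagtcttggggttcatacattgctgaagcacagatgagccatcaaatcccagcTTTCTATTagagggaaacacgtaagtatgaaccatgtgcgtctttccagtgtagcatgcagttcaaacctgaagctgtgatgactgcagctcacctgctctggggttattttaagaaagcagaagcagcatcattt
The motifs, chosen after the windows had been seen, were the octamer ATTTGCAT, the E-box CACGTG, the EBF core CCCNNGGG, the ETS core AGGAAGT and the IRF core AANNGAAA, which do not overlap in these windows. Cd79a held the ETS core at bases 196 to 202 of its window, as did 9.35% of all 32851 windows of this length. Cd22 held the EBF core at bases 203 to 210, as did 13.7% of all windows. Jchain held a match to the IRF core at bases 165 to 172, a motif present in 23.9% of all windows. None of the 5 was found in the Pou2af1 window, and the octamer, present in 1.74% of all windows, was in 0 of the 5 windows searched.

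The same libraries were high or low for all 5 B cell genes. WT replicates 3 and 4 and Chd8L+/- replicates 3 and 5 were the 4 highest of 12 for each of Cd79a, Cd79b, Ms4a1, Cd22 and Pou2af1. WT replicate 5 and Chd8L+/- replicates 4 and 6 were the 3 lowest for each of the 5. Both ends of the order thus held mice of both genotypes. The ratio of the highest to the lowest library was 66.6 for Cd79a, 17.7 for Cd79b, 63.3 for Ms4a1, 160 for Cd22 and 28.4 for Pou2af1, where the median over all tested genes was 2.29. The lowest library for Cd22 held 2 reads, and the exact 95% counting interval of its ratio ran from 44.0 to 1328. The SD around the genotype means was between 1.5 and 2.25 on the log2 scale for the 5 genes, and between 98.4% and 99.8% of all tested genes had a smaller one. Counting error alone would give an SD of 0.22 to 0.42 at these read numbers.

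**Figure D2:**
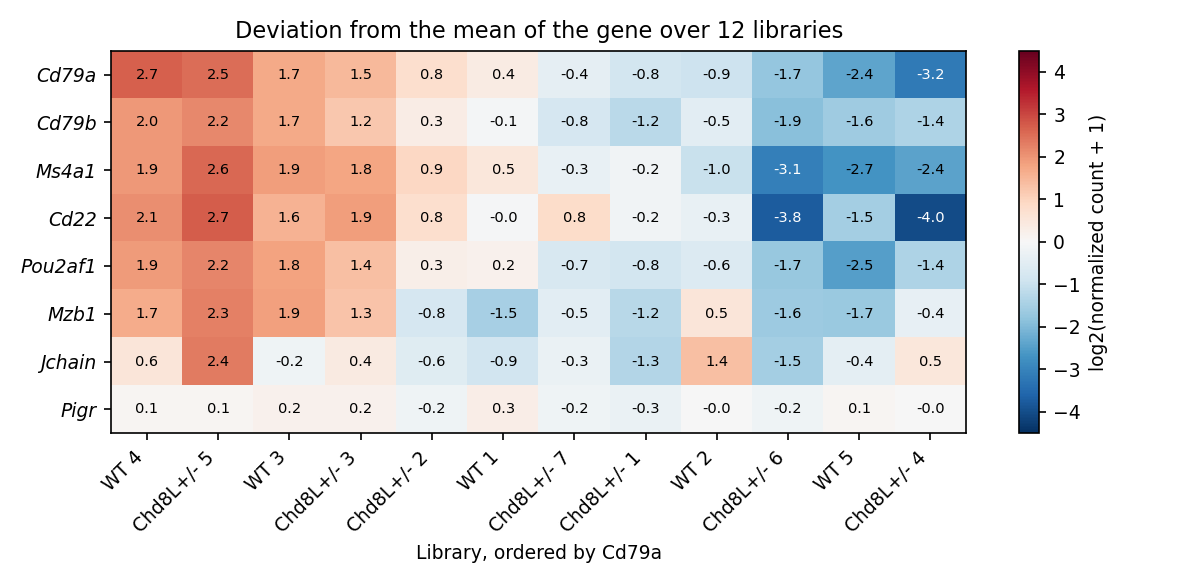
Deviation of each gene, in log2(normalized count + 1), from its own mean over the 12 libraries, with libraries ordered from left to right by Cd79a. The 5 B cell genes are high in the 4 leftmost libraries and low in the 3 rightmost ones, whereas Jchain is also high in WT replicate 2 and Chd8L+/- replicate 4, and Pigr is nearly flat.

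Correlation over the 12 libraries was computed for all 28 pairs of the 8 genes, on log2(normalized count + 1), and 16 pairs had a Benjamini-Hochberg adjusted permutation p of 0.05 or less. All 10 pairs among the 5 B cell genes were among these, with Pearson's r of 0.84 to 0.98, Spearman's rho of 0.91 to 0.99 and adjusted p of at most 0.00098 in the permutation test for r. Cd79b and Pou2af1 were the closest pair (r = 0.98, rho = 0.99), with r = 0.97 without the 2 libraries farthest from the median of Cd79b. Cd22 and Pou2af1 were the least close of the 10 (r = 0.84, rho = 0.91), with r = 0.94 without the 2 farthest libraries. Within the 7 Chd8L+/- libraries r was between 0.85 and 1.0 for these 10 pairs, and no correlation is given for the 5 WT libraries alone. Over every alternative tried, which included leaving out each library in turn and taking deviations from the genotype means, r of the 10 pairs did not drop under 0.81. Libraries share their size factor, so that values of a library are not fully independent of each other.

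Among the genes outside the 8 that followed Cd79a most closely over the 12 libraries were Fcer2a (r = 0.985), Fcmr (r = 0.981), Tnfrsf13c (r = 0.979), Pax5 (r = 0.977), H2-Eb2 (r = 0.967), Btla (r = 0.962), Blk (r = 0.957), H2-Ob (r = 0.956) and Napsa (r = 0.956). Fcer2a is the low-affinity IgE receptor of follicular B cells, Tnfrsf13c the receptor for the survival factor BAFF and Blk a kinase downstream of the B cell receptor. Fcer2a lay between 6.27 and 151 in WT and between 3.14 and 191 in Chd8L+/- libraries, so that its groups overlapped, as did those of Pax5.

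Cxcl13, the follicular chemokine that attracts B cells, had normalized counts of 0.889, 1.01, 1.01, 0 and 0 in WT replicates 1 to 5 and of 0.864, 3.55, 2.8, 3.14, 29.3, 0 and 3.33 in Chd8L+/- replicates 1 to 7. It thus stood at 0 in WT replicate 4, one of the libraries highest for the B cell genes, and was highest in Chd8L+/- replicate 5, another of them. It was chosen after its values were seen, and its mean was below the 10 needed for a test. The mean log2 level of 11 genes of follicle stroma and chemokines was highest in Chd8L+/- replicate 5 (7.83) and WT replicate 4 (7.61). WT replicate 3 (6.99) and Chd8L+/- replicate 3 (6.88) came next. The lowest means were in Chd8L+/- replicates 6 (4.87) and 4 (5.32) and WT replicate 5 (5.14), as for the B cell genes. That list includes Fcer2a, Cr2 and Ltb, however, which were also listed as genes of B cell surface and receptor signaling. Cr2 had r = 0.95 and Ltb r = 0.72 to Cd79a, so that part of this order is shared through the lists. Among other genes in it, r to Cd79a was 0.72 for Clu, 0.23 for Ltbr, 0.12 for Bst1 and -0.08 for Mfge8.

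The genes of antibody secretion departed from this order, Jchain most of all. Mzb1 (ENSMUSG00000024353, chr18:35647267-35649367, minus strand) encodes a chaperone of the endoplasmic reticulum that helps marginal zone B cells and plasma cells assemble and secrete antibody. It had 7.11, 32.5, 81.7, 72.4 and 6.27 normalized counts in WT replicates 1 to 5 and a lowest, median and highest Chd8L+/- value of 6.37, 15.5 and 110. Its groups overlapped (log2 fold change -0.32, SE 0.78, adjusted p = 0.824, limma), and reads shared with SPATA24, a protein-coding gene that overlaps it on the same strand, cannot be told apart. Mzb1 correlated with the 5 B cell genes at r = 0.70 to 0.88 and with Jchain at r = 0.77 (rho = 0.82, adjusted permutation p = 0.00644; r = 0.79 without the 2 libraries farthest from the median of Mzb1, and r = 0.93 within Chd8L+/- libraries). It was thus the only one of the 8 genes whose correlation with both the B cell genes and Jchain passed the adjusted threshold.

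Jchain (ENSMUSG00000067149, chr5:88519809-88527891, minus strand) encodes the peptide that joins IgA dimers and IgM pentamers. It had 313, 1467, 493, 836 and 420 normalized counts in WT replicates 1 to 5, and 225, 384, 758, 807, 2879, 195 and 463 in Chd8L+/- replicates 1 to 7. The 2 highest libraries were Chd8L+/- replicate 5 and WT replicate 2, and the groups overlapped, with Chd8L+/- values both below and above every WT value. The log2 fold change was -0.15 (SE 0.58, 95% interval -1.4 to 1.09, adjusted p = 0.892, limma). Per kilobase of exons, the median over all libraries was 190 normalized counts for Jchain, 52.7 for Cd79a, 38.7 for Cd79b, 18.6 for Pou2af1, 13.3 for Mzb1, 13.1 for Cd22 and 7.1 for Ms4a1. Jchain was thus the most abundant of the lymphoid genes per length, with the spread between libraries wider than the steps between most of the others.

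None of the 5 correlations of Jchain with the B cell genes passed the adjusted threshold. They lay between r = 0.38 (Cd79a, rho = 0.36, adjusted permutation p = 0.26) and r = 0.58 (Cd79b, rho = 0.59, adjusted permutation p = 0.0791). The number of Jchain counts per Cd79a count ran from 1.71 in WT replicate 4 and 2.02 in WT replicate 3 to 30.5 in WT replicate 5, 38.1 in WT replicate 2 and 110 in Chd8L+/- replicate 4. In the other 7 libraries it lay between 3.0 and 8.92. WT replicate 2, with 38.6 counts of Cd79a, thus had more Jchain (1467) than WT replicates 3 (493) and 4 (836). Chd8L+/- replicate 4, lowest for Cd79a, had more Jchain (807) than Chd8L+/- replicate 3 (758) but less than replicate 5 (2879). WT replicate 5 had less (420) than WT replicates 3 and 4. The ratio did not differ between genotypes beyond its spread (two-sided exact permutation test, log2 difference 0.35, p = 0.764).

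RNA of other cells moved with these genes in different ways. In all, 36 correlations were computed between 4 of the genes (Cd79a, Mzb1, Jchain and Pigr) and the mean log2 level of 9 gene lists, and this comparison was chosen after values had been seen. Of the 36, 6 had an adjusted permutation p of 0.05 or less for r. Cd79a followed the mean of 10 genes of all leukocytes (r = 0.89, rho = 0.88, adjusted permutation p = 0.00636; r = 0.84 without the 2 farthest libraries). B cells are themselves leukocytes, so that this mean is not one of other cells alone. Single genes of the list followed Cd79a unequally, with r = 0.85 for Coro1a, 0.78 for Laptm5, 0.61 for Ptprc and 0.29 for Rac2. The correlation of Cd79a with the mean of 10 stromal and endothelial genes was near 0 (r = 0.03, rho = -0.15, adjusted permutation p = 0.949). Jchain correlated with the stromal and endothelial mean at r = 0.75 (rho = 0.61), with adjusted permutation p of 0.0366 for r and 0.128 for rho. It fell to r = 0.52 without the 2 farthest libraries and was 0.94 within Chd8L+/- libraries, so that the relation over all 12 rests in part on those 2. The difference between the 2 genes in this respect was not tested. Mzb1 followed the leukocyte mean, with the same limit (r = 0.87, rho = 0.85, adjusted permutation p = 0.00636; r = 0.81 without the 2 farthest libraries).

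**Figure D3:**
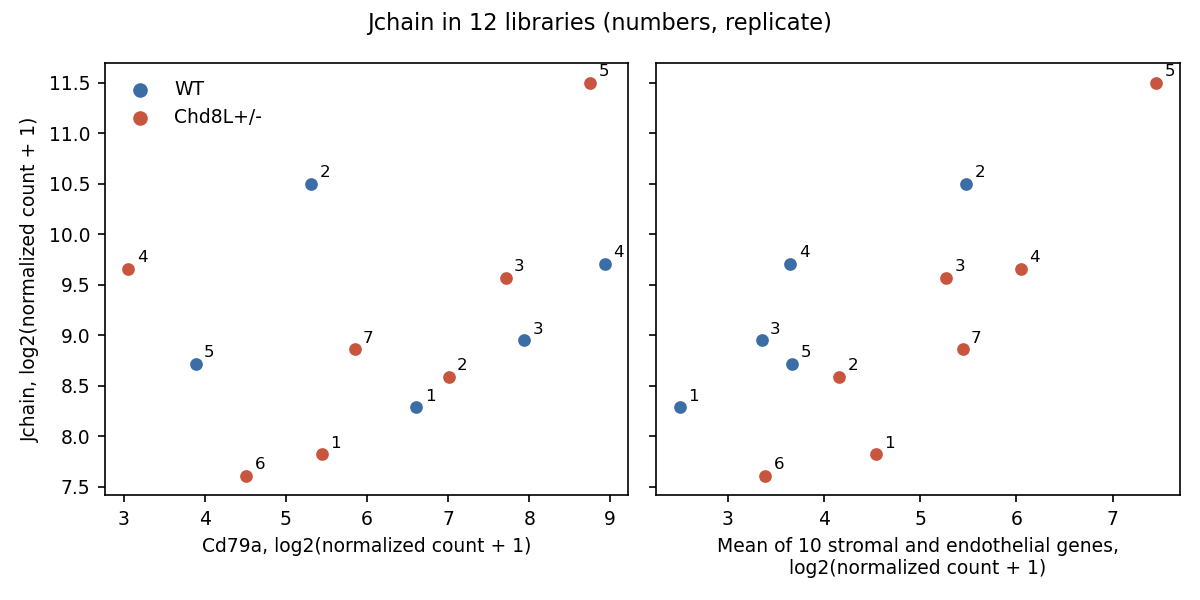
Jchain against Cd79a (left) and against the mean of 10 stromal and endothelial genes (right), all in log2(normalized count + 1), with 1 point per library, blue for WT and red for Chd8L+/-, and the replicate number beside it. On the left (r = 0.38), WT replicate 2 lies far above Chd8L+/- replicate 1, which has similar Cd79a. Among the libraries lowest for Cd79a, Jchain is highest in Chd8L+/- replicate 4, then WT replicate 5, then Chd8L+/- replicate 6. On the right (r = 0.75), Chd8L+/- replicate 5 is the highest on both axes.

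Dcn and Des, genes of fibroblasts and muscle cells, were read library by library. Dcn, a proteoglycan of fibroblasts, had 3.56, 114, 9.07, 2.98 and 3.76 normalized counts in WT replicates 1 to 5 and 9.5, 16.9, 75.6, 233, 419, 0.91 and 69.9 in Chd8L+/- replicates 1 to 7. Des, an intermediate filament of muscle cells, was at 42.6 in WT replicate 2, 61.6 in Chd8L+/- replicate 3, 129 in Chd8L+/- replicate 4, 401 in Chd8L+/- replicate 5 and 39.9 in Chd8L+/- replicate 7. Both genes were thus high in WT replicate 2 and Chd8L+/- replicate 4, where Jchain was high against Cd79a, and highest in Chd8L+/- replicate 5, where Jchain itself was highest, but low in WT replicate 5. Chd8L+/- replicates 3 and 7 did not follow this, with similar levels of both stromal genes to WT replicate 2 and a ratio of Jchain to Cd79a of 3.64 and 8.18. Dcn is among the stromal genes chosen after their values were seen, as are Des and Pecam1 of the same list. Pecam1 differed, with r = 0.83 to Cd79a and 0.51 to Jchain, against 0.04 and 0.76 for Dcn and 0.02 and 0.78 for Des. Its normalized counts were 82.3 in WT replicate 4, 107 in Chd8L+/- replicate 5 and 24.1 in Chd8L+/- replicate 4. Acta2 and Col3a1 of the list had r = -0.02 and -0.05 to Cd79a and 0.72 and 0.55 to Jchain. Col3a1 was at 38.9, 46.2 and 46.7 in Chd8L+/- replicates 1 to 3, a more even level than that of Dcn. Of the 14 genes of the stromal list, 10 were tested, 9 were higher in Chd8L+/- mice with a median log2 fold change of 1.72 (0.014 over all genes). Of these 10, 0 passed the adjusted threshold (0.0234% of all genes) and 5 had an unadjusted p of 0.05 or less (24.3% of all genes), while DESeq2 called 2 of 10 (6.44% of all genes) and limma without WT replicate 2 called 4 of 10 (27.6%), all higher. The summed level of all 14 ran from 108 to 517 in WT and from 149 to 2341 in Chd8L+/- libraries. The part of stromal RNA in the level of Jchain was not tested.

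Other plasma cell genes were few or shared with the epithelium. Of 16 listed genes besides the 8 followed, 13 were tested, 7 were lower and 6 higher in Chd8L+/- mice, 0 passed the adjusted threshold and the median log2 fold change was -0.01. Irf4, a factor of activated B cells and plasma cells, was at 8.78 to 52.6 in WT and 6.37 to 85.9 in Chd8L+/- libraries and followed Cd79a (r = 0.89) and Jchain (r = 0.69). Ccr10, the homing receptor of IgA plasma cells, was near its floor, with its 2 highest values in WT replicate 2 (10.1) and Chd8L+/- replicate 5 (11.5), the libraries that were also highest for Jchain. Xbp1, Txndc5, Edem1 and Sdc1, all of which epithelial cells also express, had the highest means of this list, and Txndc5, a disulfide isomerase, ranged from 2006 to 3522 in WT and from 2127 to 4411 in Chd8L+/- libraries. Of 18 listed immunoglobulin and surrogate light chain symbols, only Vpreb1 had a row, with at most 12.5 normalized counts, so that IgA heavy chain and light chain RNA were not analysed here.

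Pigr (ENSMUSG00000026417, chr1:130826684-130852249, plus strand) behaved differently from all lymphoid genes. Its window is shown as that of the epithelial receptor.
Pigr, chr1:130826434-130826733, plus strand: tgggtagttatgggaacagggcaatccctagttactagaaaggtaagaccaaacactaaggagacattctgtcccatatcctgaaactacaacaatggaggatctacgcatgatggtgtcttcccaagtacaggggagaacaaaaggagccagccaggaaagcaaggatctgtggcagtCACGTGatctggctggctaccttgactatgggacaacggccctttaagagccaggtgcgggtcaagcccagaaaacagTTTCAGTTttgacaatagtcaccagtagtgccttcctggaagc
Capitals mark the E-box CACGTG at bases 180 to 185, which 7.15% of all windows hold, and a match to the IRF core at bases 258 to 265. Per kilobase of exons Pigr had a median of 18100 normalized counts over all libraries, against 190 for Jchain. It had 86206, 69551, 79772, 76746 and 75718 normalized counts in WT replicates 1 to 5. In Chd8L+/- replicates 1 to 7 it had 56902, 62873, 79573, 72187, 73766, 62964 and 61282. The highest library was 1.52 times the lowest, the SD around the genotype means was 0.15 on the log2 scale, and 5.82% of all tested genes had a smaller one. Its level was thus among the steadier ones in these libraries, while the genes of the cells that make its cargo varied widely.

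The Pigr groups overlapped, with 4 of 7 Chd8L+/- libraries below every WT library and 6 of 7 below the WT median. Mean levels were 77599 ± 6079 in the WT group and 67078 ± 8152 in the Chd8L+/- group (mean ± SD, n = 5 and n = 7). The difference of -0.22 on the log2 scale had a p of 0.0391 before adjustment in a two-sided exact permutation test, where no other of the 8 genes reached 0.05 and 21.6% of all 12808 genes did. In the fit across all genes Pigr did not pass (SE 0.23, 95% interval -0.72 to 0.29, unadjusted p = 0.373, adjusted p = 0.587, limma). The limma fit draws the variance of each gene toward that of genes of similar level. This SE and interval are thus wider than the SD of 0.15 of Pigr itself would give. After quantile normalization the difference was -0.12 with an exact permutation p of 0.614, and the exact permutation p lay between 0.0173 and 0.097 when each library was left out in turn, above 0.05 without WT replicate 1, 3, 4 or 5 or without Chd8L+/- replicate 1, 2, 6 or 7. Relative to Epcam, the level of Pigr did not differ beyond its spread (two-sided exact permutation test, log2 difference -0.02, p = 0.937), with a median of 1.77 Pigr counts per Epcam count in WT and 1.69 in Chd8L+/- libraries. That ratio varied more than Pigr itself, with a highest library 2.1 times the lowest, against 1.52 for Pigr and 1.91 for Epcam.

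Pigr did not follow the lymphoid genes at the adjusted threshold: its 7 correlations lay between r = 0.25 (Cd22) and r = 0.50 (Cd79b), with adjusted permutation p of 0.15 to 0.422. Of the 28 pairs within the 7 Chd8L+/- libraries, r of Pigr was 0.79 with Mzb1 (exact permutation p = 0.0329, unadjusted) and 0.74 with Jchain (exact permutation p = 0.05, unadjusted). The genes most like Pigr over the 12 libraries were Jpt1 (r = 0.889), Tcf7l2 (r = 0.853), Myd88 (r = 0.837), Slc35f2 (r = 0.834), Psmb10 (r = 0.833), Pim2 (r = 0.825), Neurl3 (r = 0.824), Psmb8 (r = 0.819), Osbpl9 (r = 0.815) and Psme1 (r = 0.813). Myd88 is the adaptor of most Toll-like receptors, Tcf7l2 a transcription factor of Wnt signaling, and Psmb8, Psmb10 and Psme1 encode parts of the immunoproteasome and its activator. Psmb10 was at 2844 ± 283 in the WT group and 2312 ± 243 in the Chd8L+/- group (mean ± SD, n = 5 and n = 7), with a log2 fold change of -0.30 (SE 0.11, adjusted p = 0.138, limma). Myd88 was at 458 ± 45.7 and 407 ± 47.9 in the same groups (log2 fold change -0.17, SE 0.12, adjusted p = 0.361, limma).

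**Figure D4:**
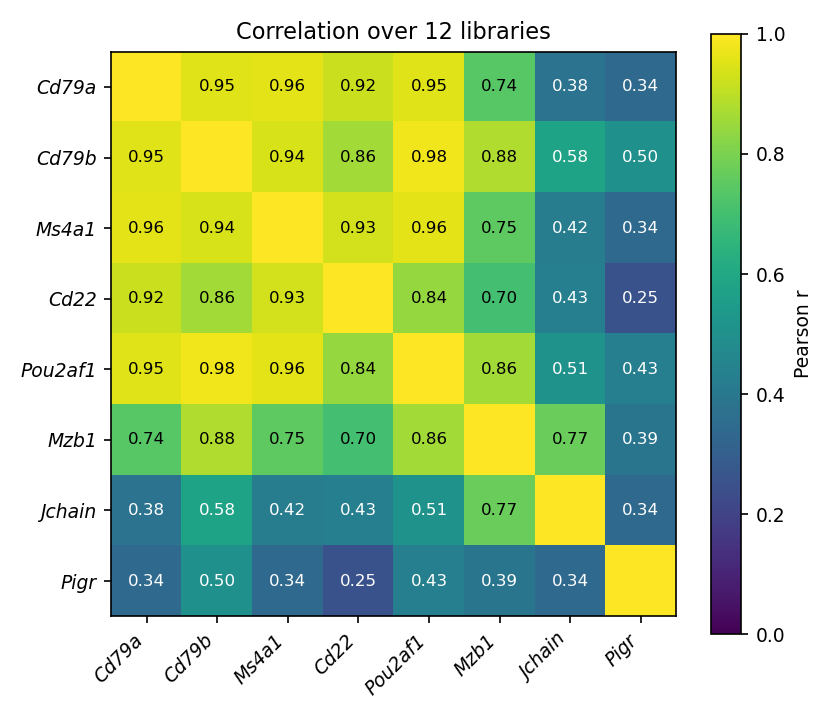
Pearson's r over 12 libraries for each of the 28 pairs of genes, on log2(normalized count + 1). The 5 B cell genes form a block of r between 0.84 and 0.98, Mzb1 lies between that block and Jchain, and the values of Pigr with the other 7 genes are between 0.25 and 0.50.

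Read together for the question of whether the genotypes differ, the 8 genes gave no call. At an adjusted p of 0.05 or less by limma, 0 of 8 were called, against 0.0234% of all tested genes. Before adjustment limma put 0 of 8 at 0.05 or less, against 24.3% of all genes, and by edgeR and DESeq2 on the recovered reads the adjusted count was also 0 of 8, against 0.039% of all genes by edgeR and 6.44% by DESeq2. At such shares a count of 0 among 8 genes does not set them apart from the rest. No gene of the 8 had groups that did not overlap, which 0.515% of all genes had. The log2 fold change was below 0 for 8 of 8, with a median of -0.30, where 48.6% of all genes were below 0 and the median was 0.014. These 8 directions are not independent, since most of the genes varied together, and single directions changed with the library left out, the test or a block for 6 of the 8 genes (all but Cd79b and Pigr). The 95% intervals were wide for the lymphoid genes: for Cd79a the ratio of Chd8L+/- to WT could lie between 0.165 and 3.09, and for Cd22 between 0.124 and 3.52.

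**Figure D5:**
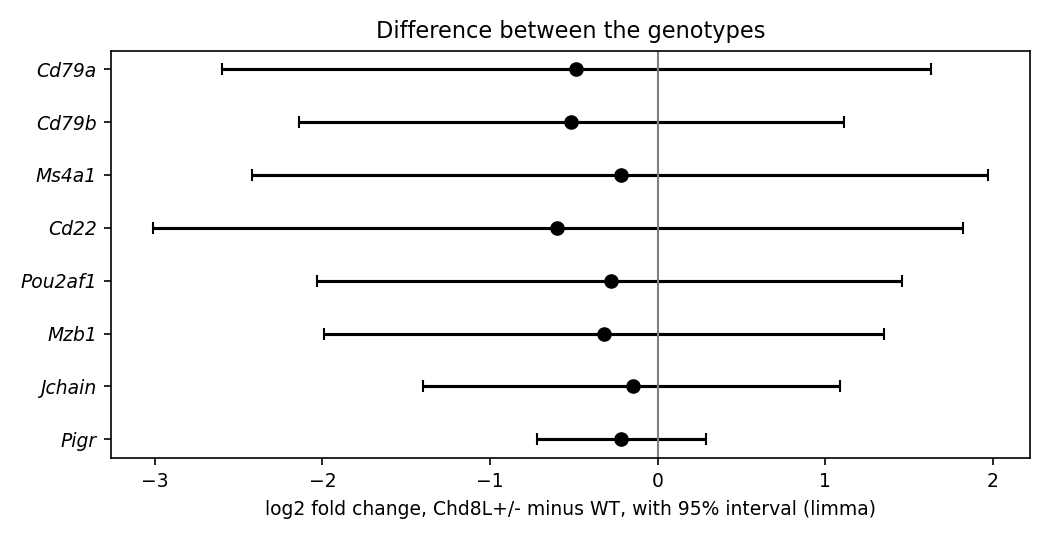
Log2 fold change from WT to Chd8L+/- for each of the 8 genes, with the 95% interval from limma across all genes. All 8 intervals include 0, from -0.72 to 0.29 for Pigr to -3.01 to 1.82 for Cd22.

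Other genes of the same pathways gave no call by limma with all libraries, where 0.0234% of all genes were called. Of 32 listed genes of B cell surface and receptor signaling, 29 were tested, 21 were lower, 0 passed the adjusted threshold and 3 had an unadjusted p of 0.05 or less, with a median log2 fold change of -0.32. These 3 were Lyn (log2 fold change -0.48, SE 0.16), Plcg2 (-0.83, SE 0.30) and Vav1 (-1.37, SE 0.44), signaling proteins that other cells also use, with adjusted p between 0.125 and 0.134 by limma. Vav1 correlated with Cd79a at r = 0.18 over the libraries, where Blk did so at 0.957. Spib, a factor of B cells, M cells and tuft cells, was at 1681 ± 987 in the WT group and 508 ± 312 in the Chd8L+/- group (mean ± SD, n = 5 and n = 7), with a log2 fold change of -1.57 (SE 0.50, adjusted p = 0.124, limma). Its correlation with Cd79a was r = 0.21. Dclk1, a marker of tuft cells, had a log2 fold change of -1.37 (SE 0.48, adjusted p = 0.133, limma) and r = 0.05 to Cd79a. The part of tuft cell RNA in the values of Vav1 and Spib was not tested.

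Of 14 listed B cell transcription factors, all tested, 6 were lower and 8 higher, with a median log2 fold change of 0.15, 0 called and 4 at an unadjusted p of 0.05 or less. Spib was lower among these 4, while Irf8, a factor of B cells and myeloid cells, had a log2 fold change of 0.61 (SE 0.16, adjusted p = 0.121, limma). Irf8 was at 1330 ± 145 in the WT group and 2069 ± 528 in the Chd8L+/- group (mean ± SD, n = 5 and n = 7). Tcf3, which encodes the E2A proteins of early B cells, was at 716 ± 281 and 1088 ± 97.6, with a log2 fold change of 0.67 (SE 0.18, adjusted p = 0.121, limma). Of 14 germinal centre genes 11 were tested, 5 lower and 6 higher, with 0 called. In the list for follicle stroma and chemokines 11 of 18 were tested, 9 lower, with 0 called. Of 15 tested genes listed for M cells and the epithelium over follicles, 7 were lower and 8 higher, with 0 called. Their mean correlated with Jchain at r = 0.85 (rho = 0.87, adjusted permutation p = 0.00636; r = 0.74 without the 2 farthest libraries), but single genes of the list did so unequally, with r = 0.76 for Pglyrp1, 0.79 for Clu, -0.19 for Serpinb6a, -0.41 for Spib and -0.57 for Cyp4b1. That mean also correlated with Mzb1 (r = 0.72, rho = 0.71, adjusted permutation p of 0.0373 for r and 0.0772 for rho; r = 0.45 without the 2 farthest libraries). In 25 listed cytokines, receptors and chemokines of the IgA response, 16 were tested, 10 lower and 6 higher, with 0 called. Ccl28, the epithelial chemokine that attracts IgA plasma cells, was at 416 ± 273 in the WT group and 653 ± 159 in the Chd8L+/- group (mean ± SD, n = 5 and n = 7), with a log2 fold change of 0.82 (SE 0.32, adjusted p = 0.148, limma). Among 20 receptors, adaptors and factors through which Pigr can be induced, 16 were lower and 4 higher, with 0 called. Their mean correlated with Cd79a (r = 0.80, rho = 0.89, adjusted permutation p = 0.0145; r = 0.75 without the 2 farthest libraries), and its correlation with Pigr itself was r = 0.40 (rho = 0.45, adjusted permutation p = 0.303). Among 17 genes of the transport of Pigr and of other epithelial immunoglobulin receptors 16 were tested, 7 lower and 9 higher, with 0 called.

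These list counts changed with the fit. DESeq2 on the recovered reads, which called 6.44% of all genes, called 3 of 28 genes of B cell surface and receptor signaling (Lyn, Plcg2 and Vav1, all lower) and 3 of 14 B cell transcription factors (Spib lower, Irf8 and Tcf3 higher). It also called 2 of 11 germinal centre genes (Rgs13 and Basp1, both lower), 2 of 15 M cell genes, 2 of 16 genes of the IgA response (Cxcl16 and Tnfsf13b, both lower), 1 of 20 inducers of Pigr (Ifngr2, lower), 2 of 16 transport genes (Rab11a and Vamp8, both lower) and 0 of 11 genes of follicle stroma. With the letter of the library name as a block, which called 3.52% of all genes, the calls were Spib, Irf8, Rgs13, Basp1 and Tnfsf13b, in the same directions. Without WT replicate 2, where 27.6% of all genes were called, the counts were 3 of 29 for B cell surface and receptor signaling, 4 of 14 for transcription factors, 3 of 12 for the germinal centre, 5 of 15 for M cells, 4 of 16 for the IgA response, 3 of 20 for inducers of Pigr, 7 of 16 for transport and 1 of 11 for follicle stroma. Under edgeR and the other alternatives tried, 0 genes of these lists were called. Over the 12 libraries r to Cd79a was -0.0 for Rgs13 and 0.22 for Basp1. The part of tuft cell RNA in the values of Rgs13 and Basp1 was not tested. The genes named here were chosen after their values were seen. The 8 genes themselves had no call under any of these fits.

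Genes of T cells and macrophages gave no call by limma with all libraries. Of 20 listed T cell genes, 18 were tested, 8 lower and 10 higher, with 0 called and a median log2 fold change of 0.0, and their summed level ran from 2900 to 6503 in WT and from 2846 to 7620 in Chd8L+/- libraries. Of 13 tested genes of macrophages and dendritic cells, 12 were higher, with 0 called and a median of 0.64, and their sum ran from 1307 to 3448 in WT and from 1951 to 4309 in Chd8L+/- libraries. In the macrophage list DESeq2 called 1 of 12 (Itgam, an integrin of myeloid cells, higher), the letter block 1 of 13 and the fit without WT replicate 2 called 5 of 13, all higher, where 0 T cell genes were called by any of these 3 fits. The mean level of the T cell list correlated with Cd79a at r = 0.43 (rho = 0.41, adjusted permutation p = 0.272) and that of the macrophage list at r = 0.16 (rho = 0.14, adjusted permutation p = 0.682). Cd3e, a chain of the T cell receptor complex, lay between 177 and 348 in WT and between 152 and 339 in Chd8L+/- libraries. Its highest library was 2.29 times its lowest, where that ratio was 66.6 for Cd79a. Over the tested T cell genes the mean log2 level ran from 5.39 in WT replicate 5 to 6.88 in Chd8L+/- replicate 3. It was 5.65 in Chd8L+/- replicate 6 and 6.44 in Chd8L+/- replicate 4, the other libraries lowest for the B cell genes.

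The lists of position along the small intestine did not correlate with Cd79a at the adjusted threshold. No correlation was computed for the colon list. The mean of 8 genes of the distal small intestine, where Peyer's patches are most frequent, correlated with Cd79a at r = 0.55 (rho = 0.62, adjusted permutation p of 0.188 for r and 0.128 for rho, unadjusted permutation p of 0.0347 for rho). For 8 genes of the proximal small intestine it was r = -0.31 (rho = -0.09, adjusted permutation p of 0.456 for r), and r = -0.64 within Chd8L+/- libraries. Fabp6, the ileal bile acid binding protein, lay between 2376 and 18642 in WT and between 42.8 and 22957 in Chd8L+/- libraries. It was 42.8 in Chd8L+/- replicate 6 but 4359 in WT replicate 5 and 5494 in Chd8L+/- replicate 4, the other libraries lowest for the B cell genes, and 2376 and 2580 in WT replicates 1 and 2. Among the libraries highest for those genes it was 18642 and 10722 in WT replicates 3 and 4 and 8319 and 22957 in Chd8L+/- replicates 3 and 5, and it was 18827 in Chd8L+/- replicate 1, which was not among them. The part of the segment sampled in the level of the B cell genes was not tested.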

How the data were processed

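The authors sequenced poly(A) RNA of gut epithelial cells, mapped the reads to mm10 with Tophat2 (version 2.0.12) and processed them through DESeq2. What they deposited is a signal for every gene in every library, namely read counts that the authors divided by a size factor of each library (normalized counts). The counting program, annotation, use of strand and gene filters are not given in the sources used here. Values of each library were whole multiples of 1 step, so whole reads were recovered for 100% of values at a tolerance of 0.001 (largest deviation 0.000147), between 15691662 and 20761315 per library. All 12 columns were matched to a mouse through the library name, leaving 0 of another sample. Each library is 1 mouse, so p-values measure the spread between mice.

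Genotypes were compared with limma 3.58.1 in R 4.3.3 (lmFit, eBayes with trend) on log2(value + 1) over the 12808 genes with a mean of at least 10, without a block, with Benjamini-Hochberg adjustment and a threshold of 0.05. For single genes, an exact permutation test (two-sided, 792 assignments of libraries, smallest p 0.00126) was added. Correlations used 100000 permutations (all of them for 7 libraries), with a smallest p of 1e-05, and p adjusted over the 28 pairs or 36 list means. As alternatives, the pseudocount was set to 0.5 or 5, the filter was dropped or raised to 10 in each library, log2 values were quantile normalized, recovered reads were tested with DESeq2 1.42.0 and with edgeR 4.0.16, the replicate number or the letter of the library name was blocked, deviations from genotype means were correlated, and each library was left out. The fits were tested on simulated data. Steps were run in Python 3.11.15 with scipy 1.17.1.

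The 8 genes and the lists were chosen with earlier results of these data known. Besides the 8 genes, those named are the 4 with the highest mean per list, any list gene past the threshold and the 10 most like Cd79a and Pigr. Genes that are not reported here are left out of these. Others were chosen after their values were seen: Chd8, Cxcl13, Cr2, Ltb, Dcn, Des, Pecam1, Ccr10, Irf4, Pax5, Clu, Fabp6, Cd3e, Spib, Vav1, Plcg2, Dclk1 and Vpreb1 where the rule does not name them. Gene positions and exon lengths are from GENCODE M21 (GRCm38, the build mm10 names), and promoters from RefSeq on GRCm38.p6. The authors may have counted on another annotation.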

Additional observations from a re-analysis of the deposited data

How the results depend on the processing

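Under 21 alternatives 0 of the 8 genes were called, as with all libraries, and the lowest adjusted p among 163 single values was 0.202 (Pigr, DESeq2). Requiring at least 10 in every library left 3 of the 8 (Cd79b, Jchain and Pigr), so the other 5 have no value there. The number of genes called over the whole table moved more: 3 with limma, 5 with edgeR, 811 with DESeq2 and 451 with the opening letter of the library name as a block, and between 0 and 3534 with each library left out (3534 without WT replicate 2, 8 without Chd8L+/- replicate 6, and at most 2 without any other); the cause was not tested. The exact permutation test put 1 of the 8 genes (Pigr) at an unadjusted p of 0.05 or less, and 0 after quantile normalization, and between 0 and 1 with each library left out. The count of correlated pairs was 16 of 28, and between 15 and 17 in 16 alternatives.

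Log2 fold changes that turned above 0, none of them called, were those of Ms4a1 (0.02), Cd22 (0.21) and Jchain (0.23) with edgeR, Cd22 (0.18) and Jchain (0.21) with DESeq2, and Mzb1 (0.06) and Jchain (0.42) with the letter block. With each library left out the ranges were -1.15 to 0.11 for Cd79a, -0.93 to 0.27 for Ms4a1, -1.10 to 0.03 for Cd22, -0.94 to 0.16 for Pou2af1, -0.78 to 0.10 for Mzb1 and -0.55 to 0.17 for Jchain, while Cd79b and Pigr stayed below 0. The cause was not tested.

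Same-numbered WT and Chd8L+/- libraries deviated together with correlations of -0.34 to 0.19, so the replicate numbers share only a number. With the replicate number as a block 0 genes were called over the table and 0 of the 8, and the log2 fold changes were 0.41 for Ms4a1, 0.16 for Pou2af1, 0.05 for Mzb1 and 0.19 for Jchain. Depth limits the lowest values: Cd22 had 2 recovered reads in Chd8L+/- replicate 4.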
